A study of Homo sapiens with 6 samples.

Results

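YAP and TAZ, the transcriptional coactivators at the end of the Hippo pathway, were examined with their DNA-binding partner TEAD1 and 7 of their target genes in A375 melanoma cells treated with CuB. The members were the rows of the deposited expression table with the gene symbols YAP1, WWTR1 (which encodes TAZ), TEAD1, CYR61, CTGF, ANKRD1, AMOTL2, NUAK2, LATS2 and AXL. Each symbol matched 1 row, giving 10 of the 58735 genes in the table, and each had a mean over the 6 libraries of at least 1 FPKM (fragment counts divided by the length of the gene and the size of the library), the level needed for the test.

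The Hippo pathway is a kinase cascade in which MST kinases with SAV1 activate LATS kinases with MOB1, and LATS phosphorylates YAP and TAZ so that they are held in the cytoplasm or degraded. Unphosphorylated YAP and TAZ enter the nucleus and bind TEAD factors, which recognise a short DNA motif near genes for matrix-associated proteins, cytoskeletal regulators and kinases. Several targets, among them LATS2, AMOTL2 and NUAK2, encode proteins that feed back on YAP and TAZ, and in melanoma high AXL marks a dedifferentiated cell state. YAP and TAZ are regulated largely through phosphorylation and location, neither of which is measured by mRNA levels.

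The treated group was A375, a human melanoma cell line in which BRAF carries an activating mutation, exposed for 6 h to CuB. CuB stands in the series title for cucurbitacin B, a plant triterpenoid found in gourds. The control group was the same line exposed for the same time to the solvent DMSO. Polyadenylated RNA was sequenced in 3 libraries per group. The labels disagree on the dose of CuB, with 0.2 µM in the protocol but 100 nM in the names of the libraries. They do not say whether replicates came from separate cultures, and the p-values therefore describe the spread among these libraries, part or all of which may be technical. The series title concerns endoplasmic reticulum stress and immunogenic cell death and names none of these genes.

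The libraries held from 14845976 to 16137093 fragments assigned to genes, and the total did not separate the groups (exact two-sided permutation p = 0.2, where 0.1 is the smallest possible). The library sizes implied by the FPKM values were other numbers, 14169893 to 14951609 with CuB and 15349996 to 16372572 with DMSO. They were 0.914 to 0.927 times the fragment total with CuB and 1.03 to 1.04 times with DMSO. Both measures separated the groups. With equal fragment totals, 2022 genes were higher with CuB and 3128 lower, against 3046 and 2072 as deposited. In that setting 7 members rose and 1 fell. The libraries differed in GC content: across 13265 genes, the deviations of a library from its group mean correlated with transcript GC content at r = -0.53, 0.13 and 0.51 for the CuB libraries and -0.38, 0.71 and -0.57 for the DMSO libraries. DMSO replicate 2 stood apart from the other DMSO libraries in this. Of the 7 melanocyte lineage markers, SOX10 was at 218 ± 31.1 FPKM with CuB and 198 ± 50.4 FPKM with DMSO (SD, n = 3 per group here and below), and the pigment genes PMEL, TYR and DCT stayed under 1 FPKM in every library. S100B fell, to 6.64 ± 0.161 FPKM with CuB, against 26.4 ± 1.61 FPKM with DMSO (limma, Benjamini-Hochberg adjusted p = 1.27e-05). MITF, at 4.42 ± 0.712 FPKM with CuB and 3.96 ± 0.467 FPKM with DMSO, did not pass (limma adjusted p = 0.475), nor did SOX10 (limma adjusted p = 0.535). MLANA was at 0.981 ± 0.307 FPKM with CuB and 0.656 ± 0.0816 FPKM with DMSO, too low for the test. The 3 keratinocyte markers summed to 1.55 to 2.67 FPKM with CuB and 0.786 to 1.31 FPKM with DMSO, with KRT1 at 0 throughout. The 3 leukocyte markers summed to 0.52 to 1.14 FPKM with CuB and 1.62 to 1.79 FPKM with DMSO, and the sums of endothelial and of fibroblast markers stayed under 1 FPKM in every library. The part of these markers in the results was not tested.

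The promoters of 3 targets are printed because they carry more than 1 copy of the core letters of the TEAD motif, GGAATG, and because all 3 genes rose. Each line gives the 250 bases before the RefSeq transcription start on the minus strand of GRCh38.p14, read 5′ to 3′, with matches to GGAATG or its reverse complement CATTCC in capitals; in ANKRD1 the capitals TGATTCA mark a match to the AP-1 motif TGANTCA. The stretches lie at chr6:131951373-131951622 for CTGF, chr10:90921088-90921337 for ANKRD1 and chr1:205321746-205321995 for NUAK2.
CTGF: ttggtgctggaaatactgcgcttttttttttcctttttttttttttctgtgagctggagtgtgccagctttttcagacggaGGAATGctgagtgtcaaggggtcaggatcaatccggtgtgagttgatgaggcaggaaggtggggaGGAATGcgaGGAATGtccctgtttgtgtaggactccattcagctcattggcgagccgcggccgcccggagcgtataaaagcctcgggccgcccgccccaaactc
ANKRD1: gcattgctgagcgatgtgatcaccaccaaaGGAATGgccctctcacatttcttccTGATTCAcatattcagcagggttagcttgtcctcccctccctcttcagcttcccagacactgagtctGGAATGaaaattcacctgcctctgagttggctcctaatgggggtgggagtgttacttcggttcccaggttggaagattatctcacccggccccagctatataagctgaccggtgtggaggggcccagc
NUAK2: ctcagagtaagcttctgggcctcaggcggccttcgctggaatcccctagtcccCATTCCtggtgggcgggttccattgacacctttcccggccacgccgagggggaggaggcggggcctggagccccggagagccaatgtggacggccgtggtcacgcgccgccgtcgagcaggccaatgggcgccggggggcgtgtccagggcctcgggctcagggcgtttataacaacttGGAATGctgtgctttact

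RefSeq windows from 250 bases before to 50 bases after a start were found for 8 members, 11 windows in all, and none were found for TEAD1 and CYR61. The first letter of each TEAD match was 169, 104 and 95 bases before the start in CTGF, 220 and 128 in ANKRD1, and 197 and 18 in NUAK2. At least 1 match lay in 7 of the 11 windows, while 14.0% of all 35116 RefSeq windows of this length held one. The 7 windows belong to 7 different members, and WWTR1 had no match in its 2 windows. The targets were listed as genes that YAP and TAZ act on through TEAD, so the choice of members itself favours matches. AMOTL2, LATS2 and AXL, which rose, and YAP1, which did not pass, had 1 match each. Any relation of matches to the rises was not tested. At least 2 matches were found in 1.37% of all windows and at least 3 in 0.128%. The AP-1 motif was in 7.71% of all windows. The CArG box bound by SRF, another factor with many cytoskeletal targets, was in 1.29% of all windows and in none of the members' windows. A match is a string of letters, and binding was not measured.

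The remaining matches are shown with 10 bases on each side, to set the single copies beside the promoters above. They lie at chr3:134374501-134374526 (minus strand) for AMOTL2, chr13:21061562-21061587 (minus strand) for LATS2, chr19:41226533-41226558 (plus strand, the second of 2 AXL windows) and chr11:102110275-102110300 (plus strand) for YAP1.
AMOTL2: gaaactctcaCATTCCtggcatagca
LATS2: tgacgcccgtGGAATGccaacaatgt
AXL: gactttgcacCATTCCactccctccg
YAP1: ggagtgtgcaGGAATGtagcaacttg

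**Figure D1:**
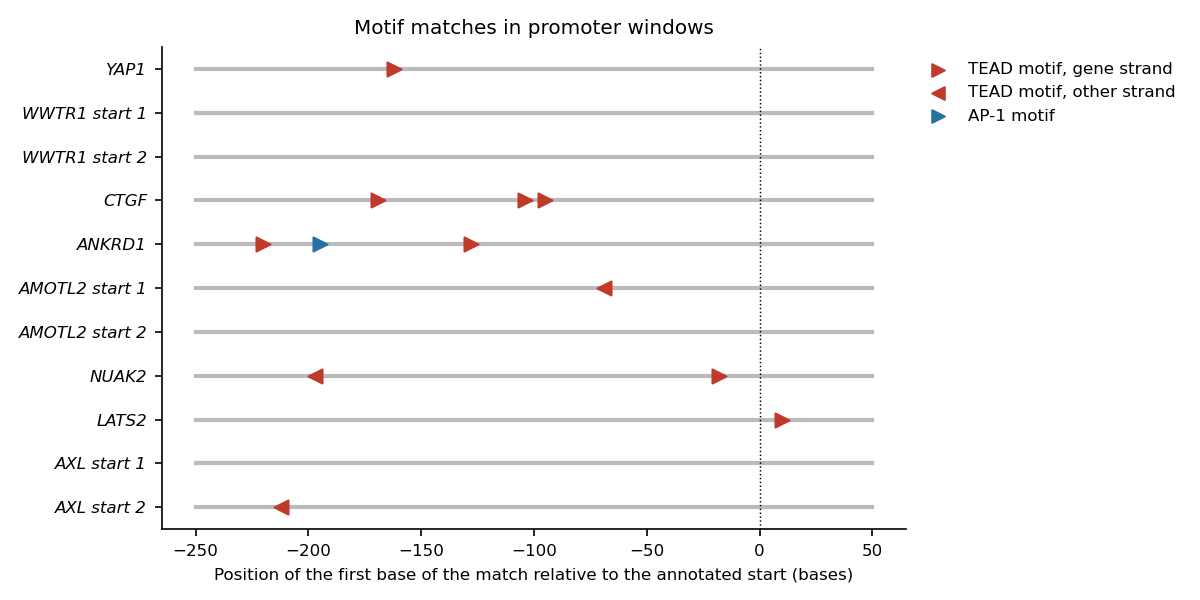
Matches to the TEAD motif (red) and the AP-1 motif (blue) in the RefSeq windows of 8 members, by position of the first base of the match relative to the transcription start (horizontal axis, bases), 1 line per window, with arrowheads pointing along the strand that carries the letters. CTGF holds 3 TEAD matches, ANKRD1 and NUAK2 hold 2 each, and neither WWTR1 window holds any.

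The comparison of CuB with DMSO asked whether mRNA of the coactivators, of TEAD1 and of the targets differed after 6 h. Of the 10 members, 7 rose with CuB at an adjusted p under 0.05 (limma's moderated test on log2(FPKM + 1), Benjamini-Hochberg over 13273 tested genes), where 22.9% of all tested genes rose. One member, WWTR1, fell, where 15.6% of all tested genes fell. YAP1 and CYR61 did not pass. Of the 7 that rose, NUAK2, ANKRD1, AXL and AMOTL2 were at least 2-fold higher on the log2(FPKM + 1) scale, as were 4.87% of all tested genes. ANKRD1, with a DMSO mean of 0.141 FPKM, passed the filter only through its CuB values, which favours a rise in these counts. The median log2 fold change was 0.77 over the 10 members and 0.05 over all tested genes. The members, and the gene lists used below, were chosen with earlier results of these data known. Their counts beside the shares of all genes are therefore not an independent comparison. These calls did not depend on DMSO replicate 2: without it, 7 members rose and 1 fell, where 3443 of all 13273 tested genes rose and 2312 fell. In bulk RNA, less RNA per cell and fewer cells of a kind cannot be told apart.

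**Figure D2:**
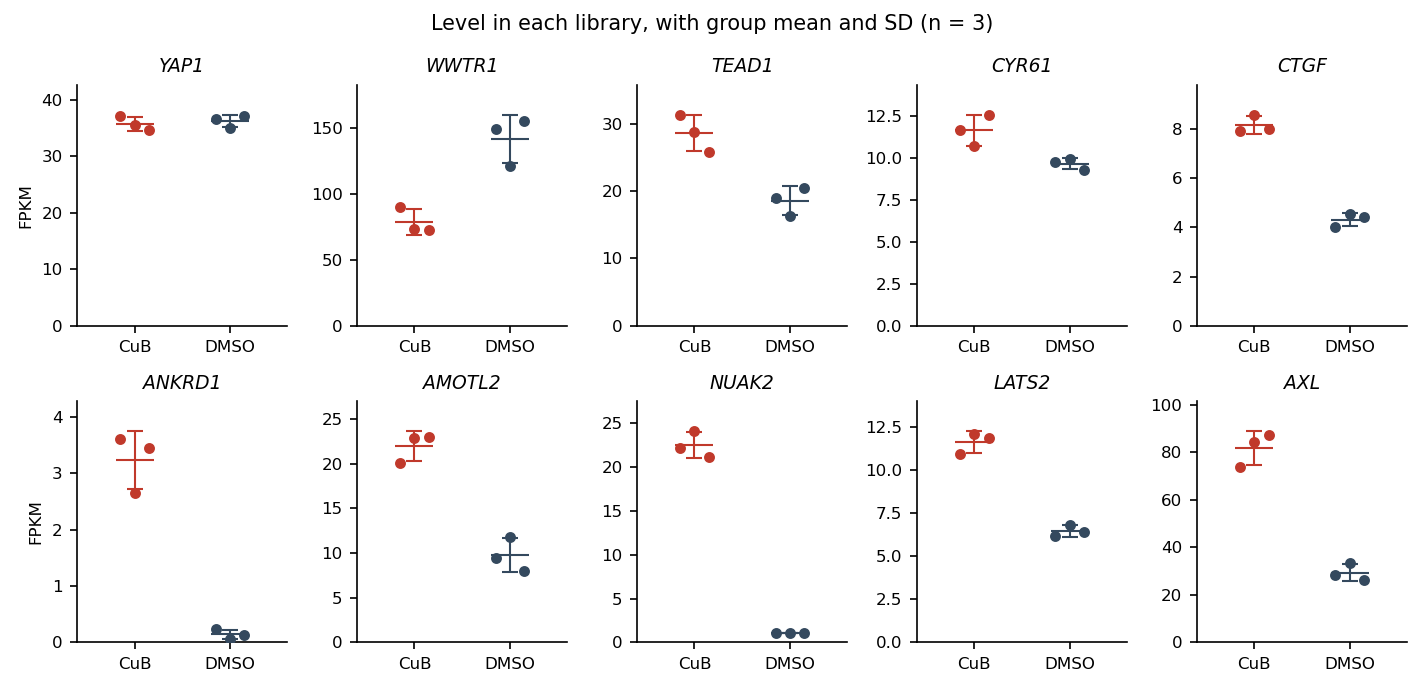
FPKM of each of the 10 members in the 3 CuB and 3 DMSO libraries (points), with the mean (long line) and SD (bars), each panel with its own linear axis from 0. The groups overlap in YAP1, WWTR1 is lower with CuB, and the other 8 genes have all 3 CuB points above all 3 DMSO points. Of all tested genes, 29.8% had all 3 CuB values above the DMSO values and 21.7% had them below.

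The coactivators came first. YAP1 (ENSG00000137693, chr11:102110461-102233423, plus strand) had 37.2, 35.5 and 34.7 FPKM with CuB, against 36.7, 35.1 and 37.1 FPKM with DMSO. The groups overlapped, and each value lay within 3 FPKM of the others. Its log2 fold change was -0.02, with a 95% interval from -0.19 to 0.15 (SE 0.0712, limma adjusted p = 0.838).

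WWTR1 (ENSG00000018408, chr3:149517235-149736714, minus strand), the paralog of YAP1, had 90.3, 73.7 and 72.3 FPKM with CuB, against 149, 121 and 155 FPKM with DMSO. The highest CuB value lay below the lowest DMSO value, as it did for 21.7% of all tested genes. WWTR1 averaged 78.8 ± 9.99 FPKM with CuB and 142 ± 18.2 FPKM with DMSO, and the DMSO mean was 1.80 times the CuB mean. The log2 fold change was -0.84 (SE 0.128, limma adjusted p = 0.00263). Its exons share 795 bases, 9.45% of their length, with the antisense gene WWTR1-AS1, which was at 0.261 FPKM with CuB and 0.388 FPKM with DMSO. Because the kit is unstranded, fragments from those bases could come from either gene.

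The 2 coactivators differed in their proportions within a library, a measure that rescaling a library as a whole cannot move. WWTR1 stood at 2.43, 2.08 and 2.09 times the YAP1 level in the CuB libraries, against 4.07, 3.45 and 4.17 times in the DMSO libraries, and these ranges did not overlap. The sum of YAP1 and WWTR1 was 115 ± 11.2 FPKM with CuB and 178 ± 19.3 FPKM with DMSO. WWTR1 was the more abundant of the pair in all 6 libraries.

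TEAD factors bind the DNA on which YAP and TAZ act. TEAD1 (ENSG00000187079, chr11:12674591-12944483, plus strand) had 31.3, 28.7 and 25.8 FPKM with CuB, against 18.9, 16.3 and 20.5 FPKM with DMSO. The lowest CuB value was above the highest DMSO value, as in 29.8% of all tested genes. The ratio of means was 1.54 and the log2 fold change 0.60 (SE 0.113, limma adjusted p = 0.0064).

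The other TEAD genes moved in different directions. TEAD4 rose, with 24.5, 28.5 and 32.0 FPKM with CuB, against 13.1, 16.0 and 13.3 FPKM with DMSO, a ratio of means of 2.01 (log2 fold change 0.95, adjusted p = 0.00142). TEAD2 fell, with 4.81, 4.29 and 4.96 FPKM with CuB, against 8.48, 10.8 and 7.50 FPKM with DMSO (log2 fold change -0.79, adjusted p = 0.00395). Neither pair of groups overlapped. TEAD3 was at 2.48 ± 0.415 FPKM with CuB and 2.79 ± 0.491 FPKM with DMSO, and did not pass (log2 fold change -0.12, 95% interval from -0.45 to 0.20, adjusted p = 0.513). VGLL4, a cofactor that competes with YAP for TEAD binding, rose, to 12.1 ± 0.448 FPKM with CuB, against 7.44 ± 0.561 FPKM with DMSO (adjusted p = 0.00157). VGLL1 was at 0 in each library, and VGLL2 and VGLL3 were below the filter. These p-values are from the same limma fit, as are those that follow.

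The summed level of the 4 TEAD genes was 64.1 ± 1.20 FPKM with CuB and 44.4 ± 1.77 FPKM with DMSO. TEAD1 made up 44.7 ± 5.07% of that sum with CuB and 41.9 ± 6.18% with DMSO, shares that overlapped. TEAD4 made up 44.1 ± 5.08% with CuB and 31.7 ± 2.36% with DMSO. TEAD2 made up 7.31 ± 0.57% with CuB and 20.05 ± 3.07% with DMSO. The ranges of the TEAD4 share and of the TEAD2 share did not overlap between groups. The shares were not corrected for GC content, which is 41.3% for TEAD1 and 60.4% for TEAD4. Over CuB replicates 1 to 3, in rising order of their GC correlations, TEAD1 held 49.8, 44.6 and 39.7%, and TEAD4 held 39.0, 44.2 and 49.2%. The part of GC content in the shares was not tested.

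**Figure D3:**
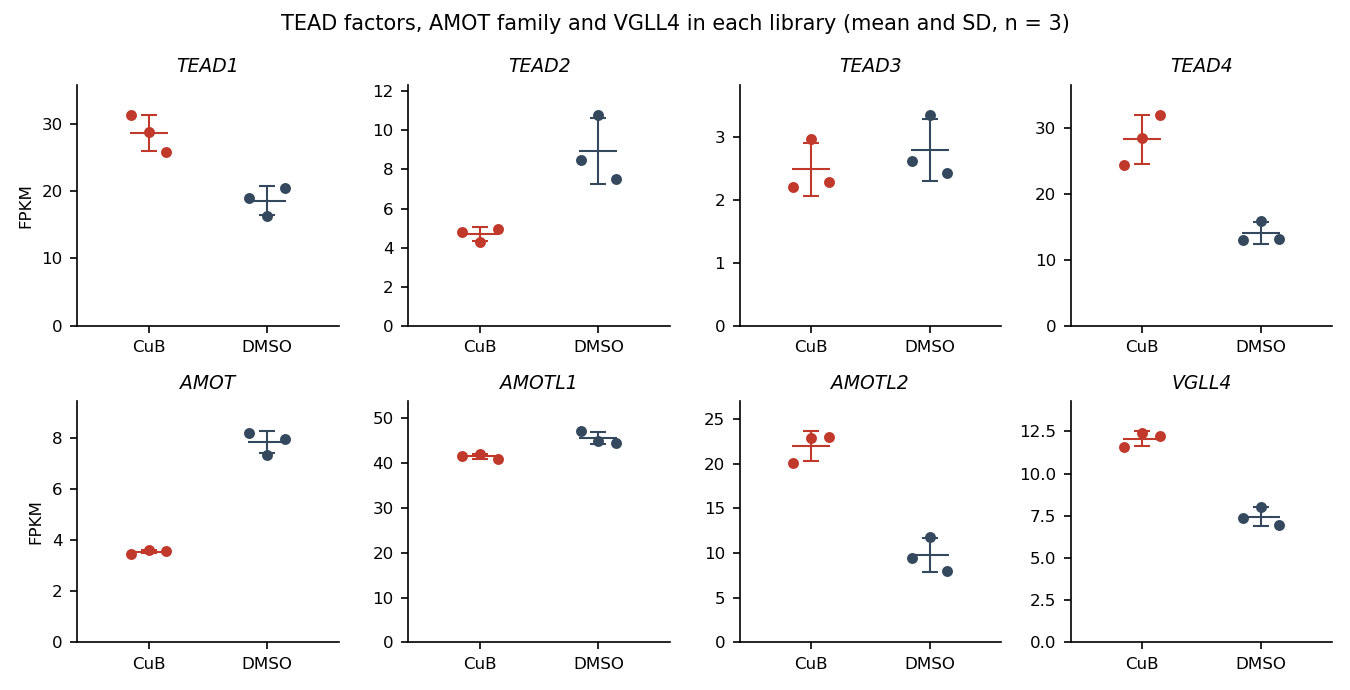
FPKM of the 4 TEAD genes, the 3 AMOT family genes and VGLL4 in the 3 CuB and 3 DMSO libraries (points), with the mean and SD, each panel on its own linear axis from 0. TEAD1, TEAD4, AMOTL2 and VGLL4 are higher with CuB, and TEAD2 and AMOT are lower.

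CTGF and CYR61, secreted CCN proteins bound to the extracellular matrix, are targets widely used to read YAP activity. CTGF (also named CCN2, ENSG00000118523, chr6:131948176-131951373, minus strand) had 7.91, 8.56 and 7.98 FPKM with CuB, against 4.01, 4.52 and 4.41 FPKM with DMSO. The groups were well apart, with each CuB value above 7 FPKM and each DMSO value below 5 FPKM. The ratio of means was 1.89 and the log2 fold change 0.78 (SE 0.0832, adjusted p = 0.000561). An antisense gene that shares 195 of its exon bases, AL133346.1, was at 0 with CuB and at 0.0439 FPKM with DMSO.

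CYR61 (also named CCN1, ENSG00000142871, chr1:85580761-85583962, plus strand) had 11.6, 10.7 and 12.6 FPKM with CuB, against 9.77, 9.90 and 9.26 FPKM with DMSO. The groups did not overlap but lay close together. Its ratio of means was 1.21 and the log2 fold change 0.25, with a 95% interval from 0.04 to 0.45 (SE 0.0864, adjusted p = 0.0611). CYR61 passed when a curve on GC content was removed from each library (adjusted p = 0.0288), and did not pass when the replicate number was added to that correction (0.0553). The ratio of CYR61 to CTGF within a library was 1.43 ± 0.166 with CuB and 2.24 ± 0.173 with DMSO. Of the other 4 CCN genes, NOV rose, to 1.55 ± 0.327 FPKM with CuB, against 0.620 ± 0.167 FPKM with DMSO (adjusted p = 0.0145). It passed the filter only through its CuB values, and without CuB replicate 2 the call was lost (adjusted p = 0.0607). WISP1, WISP2 and WISP3 were below the filter.

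ANKRD1 (ENSG00000148677, chr10:90912096-90921276, minus strand), which encodes an ankyrin repeat protein of the nucleus and the muscle sarcomere, had 3.60, 2.65 and 3.45 FPKM with CuB, against 0.230, 0.0617 and 0.129 FPKM with DMSO. It was the lowest member in both groups and rested on few fragments, 101, 78 and 102 with CuB and 7, 2 and 4 with DMSO. It passed the filter only through its CuB values. The ratio of summed fragments per library size was 23.3, with an exact 95% interval from 13.4 to 44.2 that covers counting error only. The pseudocount of 1 shrinks the change of a gene at so low a level, and on that scale the log2 fold change was 1.89 (SE 0.139, adjusted p = 0.000119). It was 3.84 with a pseudocount of 0.1 in place of 1, and 4.53 with limma-voom on the recovered fragments.

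NUAK2 (ENSG00000163545, chr1:205302059-205321791, minus strand), a kinase of the AMPK family that acts on actomyosin and on LATS, had 22.2, 24.1 and 21.2 FPKM with CuB, against 1.12, 1.03 and 1.06 FPKM with DMSO. This was the largest rise among the members by log2(FPKM + 1), and the groups differed by far more than their spread. The ratio of means was 21.0 and the log2 fold change 3.50 (SE 0.0839, adjusted p = 2.97e-06), the 20th highest of the 13273 tested genes. The paralog NUAK1 also rose, to 2.46 ± 0.223 FPKM with CuB, against 1.33 ± 0.0598 FPKM with DMSO (log2 fold change 0.56, adjusted p = 0.00552). NUAK2 stood at 9.18 ± 0.494 times the NUAK1 level in the CuB libraries and 0.803 ± 0.0635 times in the DMSO libraries, so the order of the pair was opposite in the 2 groups.

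**Figure D4:**
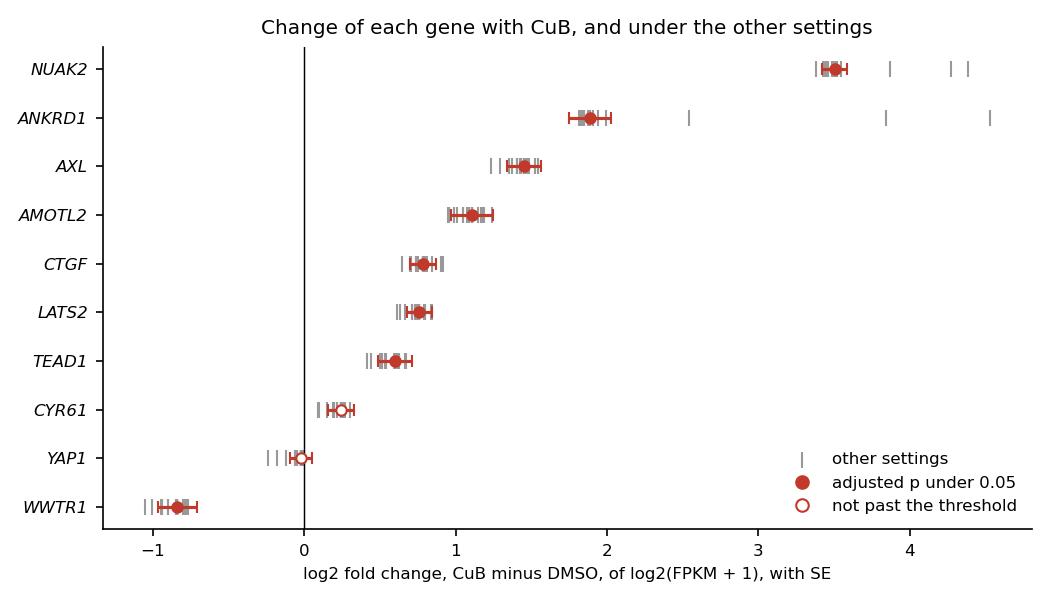
Log2 fold change of each member, CuB minus DMSO, on the log2(FPKM + 1) scale (red points, filled where the adjusted p is under 0.05, with SE bars), and the same value under each other setting (grey ticks). NUAK2 is highest at 3.50, WWTR1 is lowest at -0.84, and the ticks of ANKRD1 spread widest, up to 4.53.

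LATS2 and AMOTL2 are targets whose products restrain YAP and TAZ. LATS2 (ENSG00000150457, chr13:20973032-21061547, minus strand), a kinase that phosphorylates both, had 10.9, 12.1 and 11.9 FPKM with CuB, against 6.18, 6.82 and 6.40 FPKM with DMSO. The groups did not overlap. The ratio of means was 1.80 and the log2 fold change 0.76 (SE 0.0822, adjusted p = 0.000614). Its paralog LATS1 rose as well, to 12.7 ± 1.68 FPKM with CuB, against 8.26 ± 1.70 FPKM with DMSO (log2 fold change 0.58, adjusted p = 0.0283). The LATS1 call was lost without CuB replicate 1, without CuB replicate 2, without a filter, and under TPM, quantile or equal-total scaling, with adjusted p up to 0.087. The ratio of LATS1 to LATS2 was 1.10 ± 0.196 with CuB and 1.29 ± 0.315 with DMSO, and the groups overlapped.

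AMOTL2 (ENSG00000114019, chr3:134355874-134375479, minus strand), an angiomotin family scaffold that binds YAP at junctions and actin, had 20.1, 22.9 and 23.0 FPKM with CuB, against 9.40, 11.8 and 8.05 FPKM with DMSO. Every CuB value was above every DMSO value. The ratio of means was 2.25 and the log2 fold change 1.11 (SE 0.138, adjusted p = 0.00116). Its paralog AMOT fell, to 3.55 ± 0.072 FPKM with CuB, against 7.82 ± 0.435 FPKM with DMSO (log2 fold change -0.95, adjusted p = 0.000215). AMOTL1, the most abundant of the family, was at 41.5 ± 0.482 FPKM with CuB and 45.6 ± 1.38 FPKM with DMSO and did not pass (log2 fold change -0.13, adjusted p = 0.167), although it passed as lower in 5 of 20 alternatives.

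Within the angiomotin family the shares of the 3 genes differed between groups. The summed level was 67.1 ± 1.78 FPKM with CuB and 63.2 ± 2.23 FPKM with DMSO. AMOTL2 held 32.8 ± 1.67% of it with CuB and 15.4 ± 2.69% with DMSO, and AMOT held 5.29 ± 0.0348% with CuB and 12.4 ± 0.85% with DMSO. The ratio of AMOTL2 to AMOT within a library was 5.79, 6.36 and 6.42 with CuB, against 1.15, 1.61 and 1.01 with DMSO. Each of these shares was apart between groups. They were not corrected for GC content, which is 46.4% for AMOT and 56.7% for AMOTL2. The summed level, unlike the shares, also moves with the scaling of a library. Its direction with equal fragment totals was not tested.

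AXL (ENSG00000167601, chr19:41219203-41261766, plus strand), a receptor tyrosine kinase of the TAM family that binds GAS6, had 73.7, 84.4 and 87.1 FPKM with CuB, against 28.5, 33.3 and 26.1 FPKM with DMSO. The lowest CuB value was above the highest DMSO value by more than the range of either group. The ratio of means was 2.79 and the log2 fold change 1.45 (SE 0.113, adjusted p = 0.00015). An antisense gene, AC011510.1, shares 67 exon bases with AXL, 1.30% of its length, and averaged 1.98 FPKM with CuB and 0.299 FPKM with DMSO.

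No other TAM gene rose. TYRO3, a related receptor, was at 4.68 ± 0.497 FPKM with CuB and 5.39 ± 0.554 FPKM with DMSO (adjusted p = 0.249), and MERTK was below the filter. The ligand gene GAS6 was at 1.82 ± 0.0457 FPKM with CuB and 2.47 ± 0.762 FPKM with DMSO (adjusted p = 0.222). PROS1, the gene of the TAM ligand protein S, fell, to 1.31 ± 0.101 FPKM with CuB, against 3.07 ± 0.522 FPKM with DMSO (log2 fold change -0.81, adjusted p = 0.00291). AXL stood at 17.5 ± 0.37 times the TYRO3 level with CuB and 5.43 ± 0.162 times with DMSO.

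The order of the members by level also differed. In the CuB libraries AXL and WWTR1 were highest and overlapped each other, followed by YAP1, TEAD1, NUAK2, AMOTL2, LATS2, CYR61, CTGF and ANKRD1. NUAK2 and AMOTL2 overlapped there, as did LATS2 and CYR61. In the DMSO libraries the order was WWTR1, YAP1, AXL, TEAD1, AMOTL2, CYR61, LATS2, CTGF, NUAK2 and ANKRD1, and among neighbours AMOTL2 and CYR61 overlapped. FPKM is per length of gene but is not corrected for GC content, which runs from 40.9% in WWTR1 to 56.9% in NUAK2. The part of the GC differences among libraries in this order was not tested.

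The kinase arm of the pathway was read from a list of 17 genes, of which 16 were tested. With CuB 7 rose, 2 fell and 7 did not pass, where 22.9% of all tested genes rose and 15.6% fell, so the number that fell is near the background. The 7 that rose include LATS2, already counted among the members. The median log2 fold change was 0.21, against 0.05 over all tested genes. SAV1, the scaffold of the MST kinases, rose, to 16.8 ± 1.47 FPKM with CuB, against 8.57 ± 0.949 FPKM with DMSO (adjusted p = 0.000993). MAP4K3, a kinase that can phosphorylate LATS, rose, to 10.4 ± 1.86 FPKM with CuB, against 5.37 ± 1.03 FPKM with DMSO (adjusted p = 0.00717). STK3 and STK4, which encode the MST kinases, rose with log2 fold changes of 0.49 and 0.44. MOB1A, a gene of the LATS cofactor MOB1, fell by 0.52 on the log2 scale. MOB1B, the other MOB1 gene, did not pass (log2 fold change 0.15, adjusted p = 0.537). Of the 9 calls, 4 held in every alternative in which the gene was tested, while those of STK4, LATS1, MAP4K4, MOB1A and TNIK were each lost in at least 1. Without DMSO replicate 1, and likewise without CuB replicate 2, neither MOB1A nor TNIK passed. Under quantile normalization, which cost STK4 its call (adjusted p = 0.0546), 4 rose and 2 fell. In that setting 2241 of all 13273 tested genes rose and 2516 fell.

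Of 17 listed scaffolds and upstream regulators, 15 were tested, 6 rose, 3 fell and 6 did not pass, with a median log2 fold change of 0.23. The 6 that rose include AMOTL2, already counted among the members. Over all tested genes 22.9% rose and 15.6% fell, and the number of scaffolds that fell is near that share. RASSF1, a scaffold that binds the MST kinases, rose, to 14.3 ± 0.445 FPKM with CuB, against 3.73 ± 0.695 FPKM with DMSO (log2 fold change 1.71, adjusted p = 9.06e-05). AJUBA, a LIM protein that inhibits LATS, rose, to 8.17 ± 1.08 FPKM with CuB, against 2.89 ± 0.583 FPKM with DMSO (log2 fold change 1.24, adjusted p = 0.000771). DCHS1, a protocadherin ligand of FAT4, fell, to 0.618 ± 0.123 FPKM with CuB, against 3.09 ± 0.356 FPKM with DMSO (log2 fold change -1.34, adjusted p = 0.000299), and it passed the filter only through its DMSO values. FRMD6, which encodes a FERM domain protein, fell by 0.48 on the log2 scale, and NF2, the gene of the tumour suppressor merlin, was at 12.0 ± 1.74 FPKM with CuB and 9.04 ± 1.03 FPKM with DMSO (adjusted p = 0.0585). The calls of WWC1 and FAT1 were lost in 10 of 19 and 5 of 20 alternatives, and the other 7 held in every alternative in which the gene was tested. With equal fragment totals 4 rose and 5 fell, where 2022 of all 13273 tested genes rose and 3128 fell.

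A published signature of 22 YAP and TAZ targets holds 7 of the members. Leaving those out, 13 of 15 genes were tested, of which 6 rose, 0 fell and 7 did not pass, with a median log2 fold change of 0.34, where 22.9% of all tested genes rose and 15.6% fell. The number lower was also 0 in limma at an unadjusted p under 0.05, and 0 with limma-voom. GADD45A, a growth arrest gene with many other inducers, rose the most, to 97.9 ± 6.14 FPKM with CuB, against 11.6 ± 1.15 FPKM with DMSO (log2 fold change 2.98, adjusted p = 4.34e-06). CRIM1, F3 and MYOF rose with log2 fold changes of 1.41, 1.18 and 0.85. ASAP1 and FOXF2 passed narrowly, at adjusted p of 0.0406 and 0.0481, and were lost in 11 of 20 and 12 of 19 alternatives. Without DMSO replicate 1, DMSO replicate 3, CuB replicate 1 or CuB replicate 2, each left out in turn, 4 of the 13 rose. In those settings 1965 to 2592 of all 13273 tested genes rose. Under the GC correction 7 rose and 2 fell, where 4015 of all 13265 genes tested in that setting rose and 3591 fell. IGFBP3, at 50.4 ± 9.06 FPKM with CuB and 38.3 ± 0.662 FPKM with DMSO, did not pass (adjusted p = 0.0545), nor did FJX1, NT5E, DOCK5, PTPN14, ARHGEF17 and RBMS3.

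**Figure D5:**
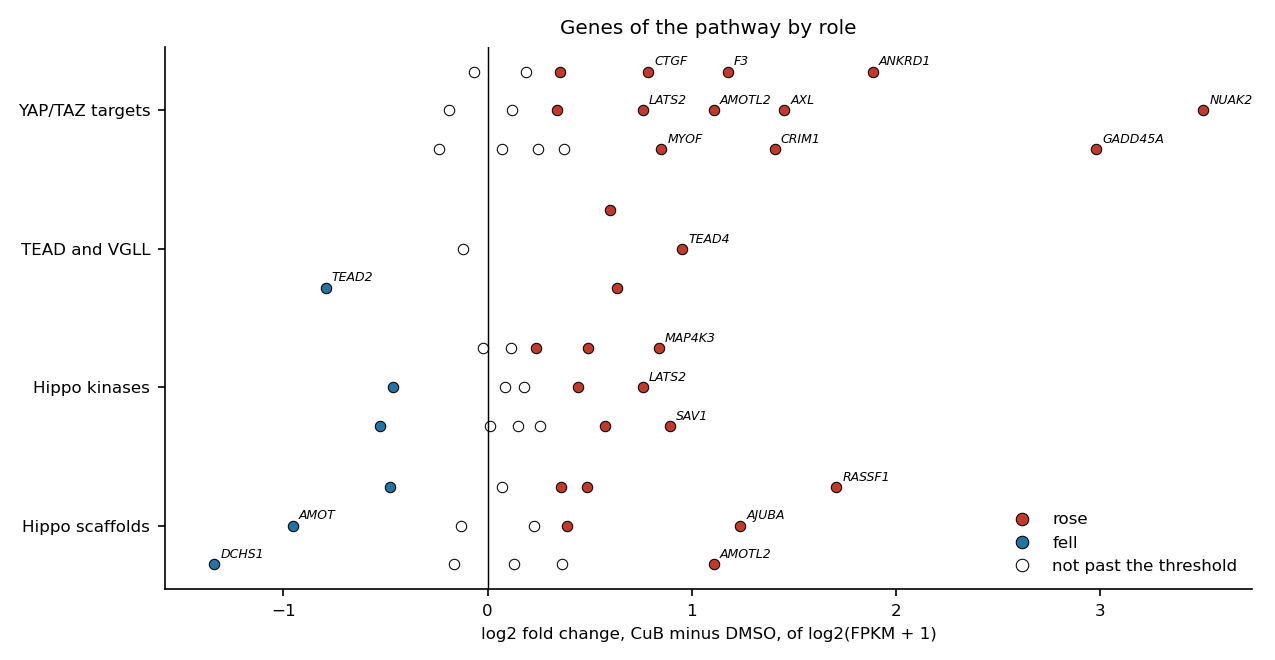
Log2 fold change, CuB minus DMSO, of each tested gene in the lists of Hippo kinases, Hippo scaffolds, TEAD and VGLL genes and YAP and TAZ targets (points), in red where the gene rose, blue where it fell and open where it did not pass; points are spread vertically within a list only to separate them. Kinases, scaffolds and TEAD genes include both red and blue points, and the target list, from NUAK2 at 3.50 downwards, has no blue point.

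The genes whose 6 values ran closest to those of YAP1, by Euclidean distance of log2(FPKM + 1) relative to the DMSO mean, were CASP2 at 0.0405, UBE2L3 at 0.0457 and SLC25A3 at 0.0475. For CYR61 they were FAM220A at 0.0961, DNAAF5 at 0.107 and POMZP3 at 0.107. Each of these 6 genes missed the threshold, as did the member it was matched to. Matching on the same 6 values that give the test largely sets this in advance.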

How the data were processed

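Libraries of polyadenylated RNA from A375 cells were made with a TruSeq kit from 1 µg of total RNA, per the labels' protocols. The authors deposited FPKM for 58735 genes, with coordinates and gene length in other columns of the deposited table. Per the submitters' processing notes, genome build GRCh38 was used. The sources used here name neither the aligner nor the counter. Every gene identifier and coordinate matched GENCODE 29. Values times gene length gave whole fragments within 0.01 of a fragment, and these set the depth.

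The test used log2(FPKM + 1) of 13273 genes that averaged 1 FPKM or more, in R 4.3.3 with limma 3.58.1 (moderated test, intensity trend, 4 residual degrees of freedom, no replicate block) and Benjamini-Hochberg adjustment over all tested genes at 0.05. Steps were tested on simulated fragments, drawn independently with a fixed spread and without GC differences among libraries. That test does not cover the GC-linked deviations of the real libraries. Levels under about 1 FPKM rest on few fragments, which limits precision. The members and the 7 gene lists were chosen with earlier results of these data known. Of each list, up to 4 passing genes with the largest change were named, or, where under 2 passed, the 2 most abundant, and for YAP1 and CYR61 the 3 genes of nearest pattern. Others, such as STK3, STK4, MOB1A, MOB1B, FRMD6, CRIM1, F3, MYOF, NUAK1, TEAD3, AMOTL1, TYRO3, GAS6 and NF2, were chosen after their values were seen. Alternatives were no filter, a filter at a mean of 5 FPKM, pseudocounts of 0.1 and 0.5, TPM, median of ratios, quantile normalization, equal fragment totals, no trend, robust hyperparameters, voom, the replicate number as a block, a GC correction (lowess span 0.3) with and without that block, and each library left out. No column of sample values was left unused. Plots used Python 3.11.15 and matplotlib 3.10.9.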

Additional observations from a re-analysis of the deposited data

How the results depend on the processing

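The 8 member calls held in every alternative in which the gene was tested; ANKRD1 was not tested at a minimum mean of 5 FPKM. YAP1 missed the threshold in all 20 alternatives, with log2 fold changes down to -0.24 under quantile normalization, and with each library left out it ran from -0.0483 to 0.000919, the sign turning without CuB replicate 3 (0.000919). UBE2L3 ran from -0.0489 to 0.015, turning without DMSO replicate 3 (0.00575) and without CuB replicate 3 (0.015). Over all tested genes, 5118 changed, 3046 higher and 2072 lower. A minimum mean of 5 FPKM left 3250 changed and 985 lower, by fewer genes tested. Equal fragment totals, which moved the median of all tested genes by -0.14 on the log2 scale, gave 2022 higher and 3128 lower. The GC correction gave 3591 lower, and with the replicate block 3402 lower; the cause was not tested. At least 2-fold, 961 changed (647 higher, 314 lower), with 4 members changed, 4 higher and 0 lower. Leaving out each library in turn gave 3262 to 5755 changed, 1965 to 3443 higher and 1297 to 2312 lower, the lowest counts being without CuB replicate 2. Higher calls were 59.5% of calls, against 46.7% with TPM, 47.1% with quantile normalization and 39.3% with equal totals. Across 13273 genes, the deviations from the group mean correlated between same-numbered libraries at 0.27, 0.12 and -0.36. Differently numbered libraries reached 0.47 (CuB replicate 3 with DMSO replicate 2), and both of these had deviations that correlated positively with GC content. The values cannot decide whether samples were paired, and the numbers were not taken to pair them. With the replicate block 4443 genes changed, with 7 members higher and 1 lower. Depth limits ANKRD1 most, with 13 fragments over the DMSO libraries.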
